A study of Sus scrofa with 12 samples.

Results

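The genes described here are 10 transcripts of the hypoxia response, the program by which cells react to a shortage of oxygen. They were chosen by symbol as HIF1A, EPAS1, VEGFA, ADM, EGLN1, EGLN3, BNIP3, PFKFB3, NDRG1 and DDIT4, and each symbol was matched to an Ensembl gene of the pig. Of the 10 genes, 9 were measured among the 25880 genes of the count table, and all 9 passed the filter on low counts together with 14262 genes in all. BNIP3, a mitophagy receptor of the outer mitochondrial membrane, had no identifier in the gene name table and was not analysed here.

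The values are RNA sequencing counts from the Semimembranosus (SM) muscle, a large muscle of the ham, of 12 purebred Italian Large White (ILW) pigs. The high IMF group (pigs 1 to 6) and the low IMF group (pigs 7 to 12) were picked from the ends of the distribution of intramuscular fat (IMF) in a larger tested population. No agent was given, and all the pigs had the same rearing conditions and diet but were kept apart during testing. The groups were defined by IMF and not by genotype, and genotypes are not given in the sources used here. Pigs of the high IMF group were 234 to 244 days old and those of the low IMF group 229 to 249 days old, with gilts and barrows in each group. Muscle was taken after stunning and bleeding at a commercial abattoir on several days and frozen in liquid nitrogen. No muscle from a living pig was measured and the minutes from bleeding to freezing are not given in the sources used here, so the levels below cannot be split into a state before slaughter and a change after it.

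In normal oxygen the prolyl hydroxylases EGLN1 and EGLN3 hydroxylate the alpha subunits HIF1A and EPAS1 (HIF-2 alpha), which are then degraded. When oxygen falls the subunits persist, pair with ARNT and bind short DNA elements near genes of vessel growth, glycolysis and survival. HIF1A is mostly controlled as a protein, so its transcript level is not a reading of HIF activity, whereas EGLN3, VEGFA, ADM, PFKFB3, NDRG1 and DDIT4 are known transcriptional targets.

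Libraries held 131048805 to 178013997 counts, and the scaling factors of the trimmed mean of M values (TMM) ran from 0.810 in pig 7 to 1.12 in pig 12. Muscle fibre markers were abundant in every pig, with a sum over 7 of 8 listed markers of 49814.5 to 66483.9 CPM (counts scaled to a common library size after TMM) in high IMF pigs and 54349.6 to 78492.6 CPM in low IMF pigs. Counts on 2 Y chromosome genes went against the labelled sex in 6 of the 12 pigs, namely pigs 3 and 5 of the high IMF group and pigs 7, 8, 9 and 10 of the low IMF group. From which pig those libraries came cannot be told, so group differences are also given for the 6 pigs whose Y counts matched their label, 4 high IMF and 2 low IMF pigs.

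The core of the element that HIF binds was looked for in the 250 bases before each RefSeq gene start on Sscrofa11.1, the build of the authors' alignment, as ACGTG and as GCGTG on both strands. A read of ACGTG on both strands also takes in every CACGTG. Among 19556 protein-coding genes, 18.7% held ACGTG, 32.2% GCGTG and 43.5% at least either. Of 9 hypoxia genes read in this way, 3 held ACGTG (ADM, DDIT4 and BNIP3) and 3 held GCGTG (PFKFB3, DDIT4 and BNIP3). HIF1A, EPAS1, EGLN3, VEGFA and NDRG1 held neither, which says only that these letters are not in this window before the annotated start. The windows of the 2 measured genes with ACGTG are shown because these genes share the letters, and both were among the more variable genes between pigs. They lie at chr2:49231522-49231771 on the minus strand (ADM) and chr14:75117458-75117707 on the plus strand (DDIT4). Only the ACGTG core is in capitals, as CACGT where it lies on the opposite strand, and the GCGTG of DDIT4 is left in lower case.
ADM: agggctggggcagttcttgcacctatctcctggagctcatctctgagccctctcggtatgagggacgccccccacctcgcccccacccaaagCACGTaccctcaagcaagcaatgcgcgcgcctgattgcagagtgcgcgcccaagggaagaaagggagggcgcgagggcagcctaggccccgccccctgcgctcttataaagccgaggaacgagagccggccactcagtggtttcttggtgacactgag
DDIT4: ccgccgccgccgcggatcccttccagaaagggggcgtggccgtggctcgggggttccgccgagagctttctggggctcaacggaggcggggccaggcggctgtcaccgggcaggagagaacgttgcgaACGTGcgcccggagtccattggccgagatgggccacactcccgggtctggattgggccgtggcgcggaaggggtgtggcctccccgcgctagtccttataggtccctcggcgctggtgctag
The first base of the ACGTG core lay at -158 in ADM and -122 in DDIT4, and that of the GCGTG of DDIT4 at -217, counted from the gene start.

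None of the 9 genes was called between the groups, where a call needed a log2 fold change of low over high IMF (log2FC) of 0.58 or more in size with its adjusted p at most 0.05. With p-values of edgeR's quasi-likelihood test and Benjamini-Hochberg adjustment, 0.0% of all 14262 genes were called, so the 0 among the hypoxia genes is the background value. At an unadjusted p at or under 0.05 stood 2 of the 9 genes, HIF1A and EPAS1, or 22.2%, beside 10.4% of all genes, of which 5.04% had the higher mean in high and 5.38% in low IMF pigs. DESeq2's Wald test called 57 of the genes of the same fit and limma-voom called 0, and neither called a hypoxia gene. The log2FC was below 0 in 5 of the 9 genes and above 0 in 4, against 51.6% of all genes below 0, and its median was -0.086 for the hypoxia genes and -0.0083 for all genes. In each of the 9 genes the CPM ranges of the 2 groups overlapped. The share of all genes whose ranges overlap was not counted, so this does not set the hypoxia genes apart.

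**Figure D1:**
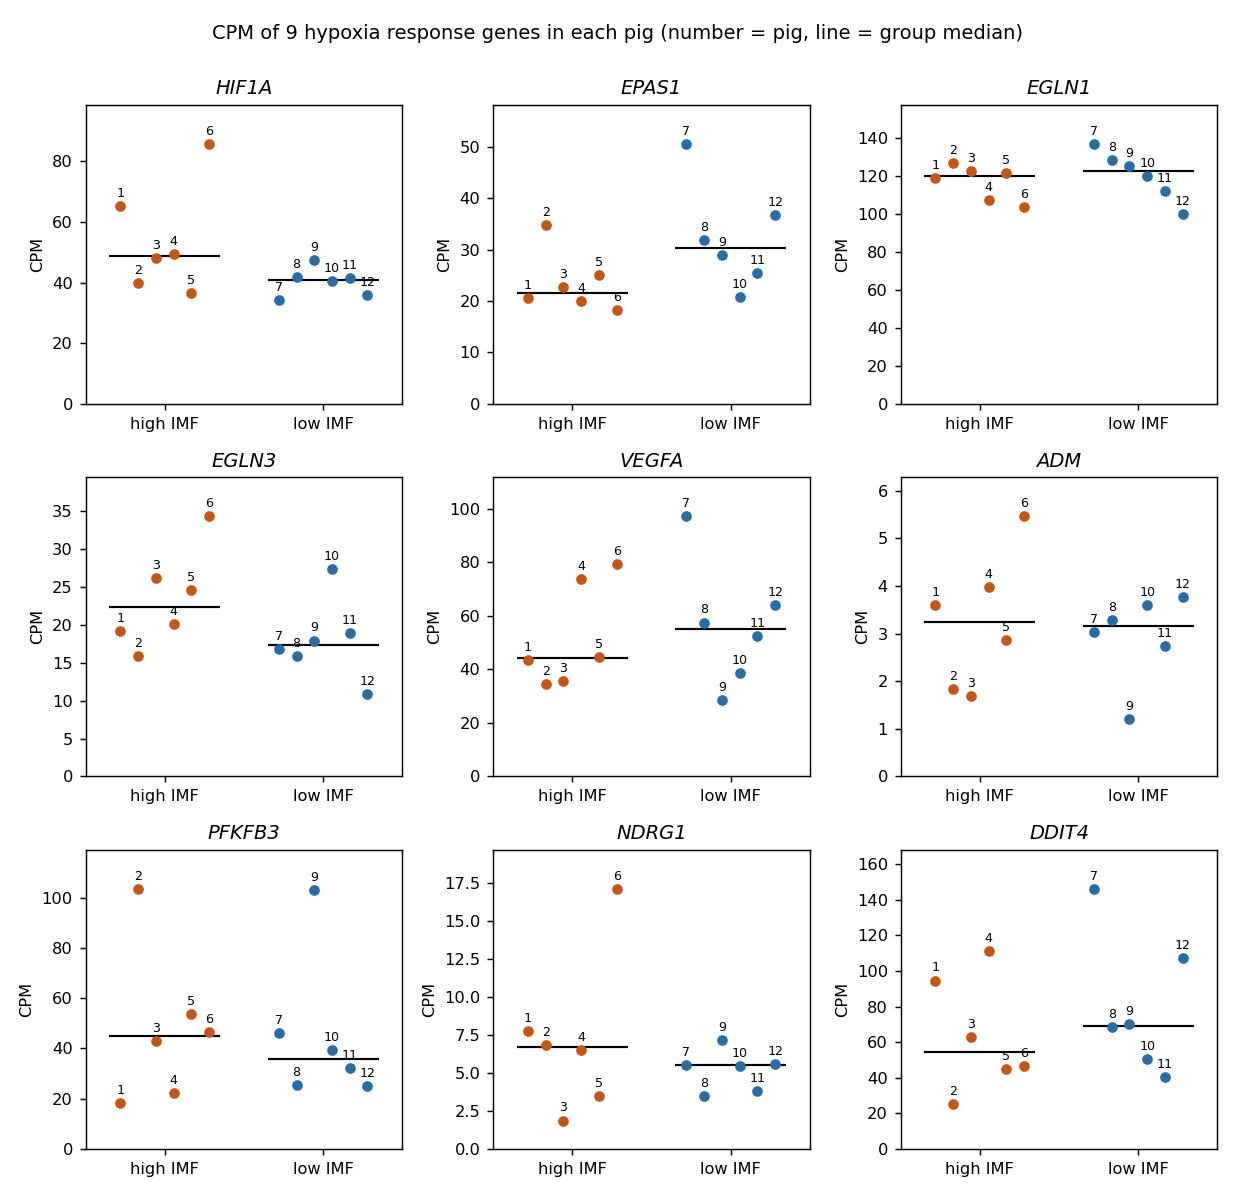
CPM (counts scaled to a common library size) of each hypoxia gene in each pig, with the high IMF group on the left and the low IMF group on the right of each panel, the pig number above its point and a line at the group median. Every panel shows overlapping groups, with pig 6 highest for HIF1A, EGLN3, ADM and NDRG1 and pig 7 highest for EPAS1, EGLN1, VEGFA and DDIT4.

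The alpha subunits leaned in opposite directions. HIF1A, at chr1:190625436-190673926 and the subunit found in nearly all cells, ran from 36.5 (pig 5) through a median of 48.8 to 85.6 CPM (pig 6) in high IMF pigs and from 34.3 (pig 7) through 40.9 to 47.3 CPM (pig 9) in low IMF pigs. All 6 low IMF pigs lay below the median of the high IMF group, whose upper end was set by pigs 6 and 1. Its mean was 54.1 ± 18.4 CPM (SD, n = 6) in high and 40.2 ± 4.66 CPM (SD, n = 6) in low IMF pigs. The log2FC was -0.43 (SE 0.19, 95% interval -0.83 to -0.03), with an unadjusted p of 0.0373 and an adjusted p of 0.452 by the quasi-likelihood test. The exact two-sided permutation test over all arrangements of the pigs gave p = 0.0801, where 0.00216 is the smallest that 6 against 6 pigs can give. Without pig 6 the log2FC was -0.25, and in the pigs whose Y counts matched their label it was -0.62.

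EPAS1, at chr3:94167759-94253662 and best known from endothelium, ran from 18.2 (pig 6) through 21.6 to 34.9 CPM (pig 2) in high IMF pigs and from 20.7 (pig 10) through 30.4 to 50.6 CPM (pig 7) in low IMF pigs. Of the low IMF pigs, 5 were above the median of the high IMF group and 1, pig 10, was below it. Means were 23.6 ± 6.00 CPM (SD, n = 6) and 32.4 ± 10.4 CPM (SD, n = 6) in the same order. The log2FC was 0.46 (SE 0.21, 95% interval 0.01 to 0.91), with an unadjusted p of 0.0466, an adjusted p of 0.473 and an exact permutation p of 0.0823. It was 0.29 without pig 7 and 0.41 in the pigs whose Y counts matched their label.

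In bulk tissue, a change in the share of the cells that express a gene and a change in RNA per cell cannot be told apart, and EPAS1 is an endothelial gene, so endothelium markers are given beside the alpha subunits. Of 12 listed markers 8 were tested, and their summed level ran from 93.4 to 130.1 CPM in high and from 102.2 to 152.1 CPM in low IMF pigs, with pig 6 lowest and pig 7 highest. Their log2FC ran from -0.28 to 0.55 with a median of 0.17, and was above 0 in 5 and below 0 in 3. The only marker of the 8 at an unadjusted p at or under 0.05, where 10.4% of all genes stood, was CDH5, the cadherin of endothelial junctions. CDH5 had 22.3 ± 5.10 CPM (SD, n = 6) in high and 32.5 ± 6.00 CPM (SD, n = 6) in low IMF pigs, and none of the 8 was called. Over the 12 pigs the mean level of the markers had a Pearson r of 0.68 with EPAS1 (0.70 without pigs 7 and 12, the farthest from the median of EPAS1), of -0.73 with HIF1A (-0.29 without pigs 6 and 1) and of -0.77 with ADM (also -0.77 without pigs 9 and 3). With PFKFB3 the r of the endothelium markers was 0.57 (0.23 without pigs 2 and 9) and with EGLN3 -0.55 (-0.17 without pigs 6 and 12). Muscle fibre markers had an r of 0.61 with EPAS1 (0.42 without pigs 7 and 12). With HIF1A theirs was -0.52 (-0.55 without pigs 6 and 1). The part of endothelium or of muscle fibres in the group differences was not tested.

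The oxygen sensors differed in steadiness. EGLN1, at chr14:59113527-59168421 and the main oxygen-dependent hydroxylase of HIF1A, stayed between 103.4 (pig 6) and 127 CPM (pig 2) in high IMF pigs, with a median of 120.2 CPM, and between 100.2 (pig 12) and 136.8 CPM (pig 7) in low IMF pigs, with a median of 122.5 CPM. Its highest pig had 1.37 times the level of its lowest. The log2FC was 0.04 (SE 0.09, 95% interval -0.16 to 0.25), with an adjusted p of 0.905 and an exact permutation p of 0.619, so the interval leaves out changes of the size required for a call. The SD of its log2 CPM within groups was 0.14, at percentile 6.23 of all tested genes.

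EGLN3, at chr7:65805513-65833536, is the hydroxylase that HIF itself strongly induces. It ran from 15.9 (pig 2) through 22.4 to 34.3 CPM (pig 6) in high IMF pigs and from 10.9 (pig 12) through 17.4 to 27.4 CPM (pig 10) in low IMF pigs. In the low IMF group 5 of 6 pigs were below the median of the high IMF group. The log2FC was -0.38 (SE 0.21, 95% interval -0.84 to 0.08), with an adjusted p of 0.550 and an exact permutation p of 0.128. Leaving out pig 6 gave -0.24 and leaving out pig 10 gave -0.54.

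For the secreted factors the groups lay over each other. VEGFA, at chr7:38746393-38762282 and the chief growth signal for vessels, ran from 34.4 (pig 2) through 44.1 to 79.6 CPM (pig 6) in high IMF pigs and from 28.6 (pig 9) through 55.1 to 97.2 CPM (pig 7) in low IMF pigs. Its log2FC was 0.12 (SE 0.29, 95% interval -0.50 to 0.74), with an adjusted p of 0.915 and an exact permutation p of 0.773. ADM, at chr2:49229223-49231521, encodes adrenomedullin, a peptide that widens vessels, and was the gene with fewest counts (at least 184 in every pig). It ran from 1.68 (pig 3) through 3.24 to 5.46 CPM (pig 6) in high and from 1.21 (pig 9) through 3.16 to 3.77 CPM (pig 12) in low IMF pigs, with a log2FC of -0.14 (SE 0.31, 95% interval -0.81 to 0.53), an adjusted p of 0.910 and an exact permutation p of 0.784. Pig 6 was the highest high IMF pig for both vessel factors, while among low IMF pigs VEGFA was highest in pig 7 and ADM in pig 12, and pig 9 was lowest for both.

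The genes of metabolism and stress varied most. PFKFB3, at chr10:64776315-64859118, makes the sugar phosphate that speeds glycolysis and ran from 18.4 (pig 1) through 44.8 to 103.5 CPM (pig 2) in high IMF pigs and from 25.2 (pig 12) through 35.7 to 102.9 CPM (pig 9) in low IMF pigs. A single pig in each group thus stood near 103 CPM, while the next highest pigs had 53.8 and 46.1 CPM. The log2FC was -0.09 (SE 0.43, 95% interval -1.01 to 0.84, adjusted p 0.966, exact permutation p 0.931), and it was 0.29 without pig 2 and -0.51 without pig 9.

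NDRG1, at chr4:8014445-8069335, encodes a protein of growth arrest and differentiation and had the widest range, 9.15-fold between pigs 6 and 3. It ran from 1.87 (pig 3) through 6.69 to 17.1 CPM (pig 6) in high IMF pigs and from 3.47 (pig 8) through 5.51 to 7.19 CPM (pig 9) in low IMF pigs, so the low IMF values lay inside the high IMF range. The log2FC was -0.49 (SE 0.40, 95% interval -1.35 to 0.38, adjusted p 0.70, exact permutation p 0.669), and -0.03 without pig 6. DDIT4, at chr14:75117708-75119907, encodes REDD1, an inhibitor of mTORC1 signalling that glucocorticoids and other stresses also induce. It ran from 25.5 (pig 2) through 54.5 to 111 CPM (pig 4) in high and from 40.4 (pig 11) through 69.3 to 146 CPM (pig 7) in low IMF pigs, with a log2FC of 0.33 (SE 0.37, 95% interval -0.46 to 1.11, adjusted p 0.789, exact permutation p 0.418), and 0.08 without pig 7 or 0.55 without pig 4. The within-group SD of log2 CPM was 0.84 for PFKFB3, 0.81 for NDRG1 and 0.73 for DDIT4, at percentiles 89.1, 88.5 and 85.9 of all tested genes, and was larger than the log2FC in all 3.

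**Figure D2:**
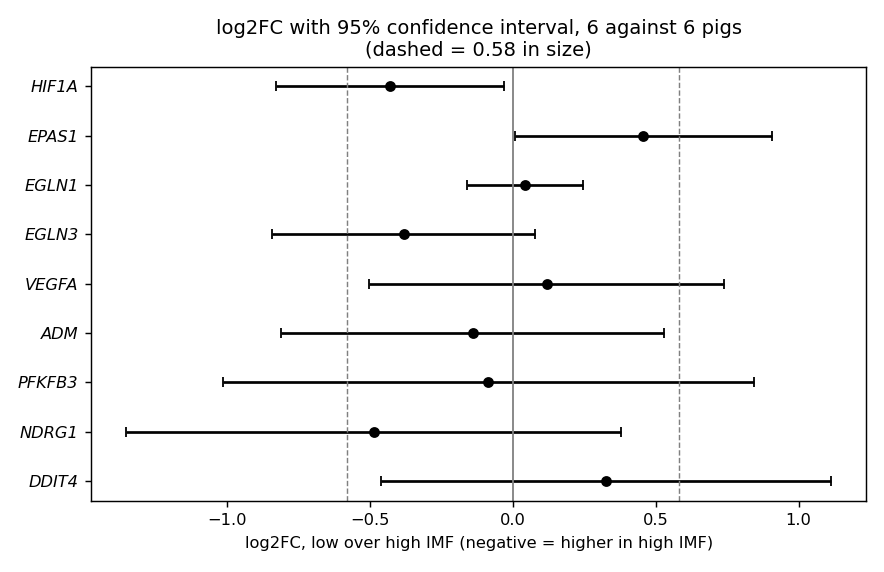
Log2FC, low over high IMF, of the 9 hypoxia genes with 95% intervals of the quasi-likelihood fit, 6 pigs against 6, with dashed lines at 0.58 in size. The intervals of HIF1A (-0.83 to -0.03) and EPAS1 (0.01 to 0.91) lie on opposite sides of 0, the other 7 include 0, and that of EGLN1 lies between the dashed lines.

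In the 6 pigs whose Y counts matched their label 0 of the 9 genes stood at an unadjusted p at or under 0.05. Among these pigs the log2FC was -0.10 for EGLN1, -0.58 for EGLN3, 0.02 for VEGFA, -0.18 for ADM, -0.73 for PFKFB3 and 0.10 for DDIT4. PFKFB3 moved furthest from its value in all pigs, and NDRG1, at -1.01 here, next.

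Levels of different genes were compared per kb of RefSeq exon. On that scale EGLN1 (mean 42.3 CPM per kb over 12 pigs) and DDIT4 (40.4) stood highest, but DDIT4 ranged from 14.2 to 81.5 CPM per kb and EGLN1 from 35.8 to 48.9, so their order does not hold beyond the spread. VEGFA (16.9) and HIF1A (16.5) followed, also overlapping, and then EPAS1 (9.80), PFKFB3 (7.51) and EGLN3 (6.43), each overlapping its neighbours in this order over the pigs. NDRG1 (2.08) and ADM (2.07) were lowest and overlapped each other.

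Whether pigs differed in a joint response was read from each gene's log2 CPM as a deviation from its mean over the 12 pigs, in units of its SD. Averaged over the 9 genes, the high IMF group ran from -0.34 (pig 3) through a median of -0.05 to 0.66 (pig 6) and the low IMF group from -0.36 (pig 11) through -0.07 to 0.65 (pig 7). Pigs 6 and 7, of opposite groups, stood apart from the other 10, which lay between -0.36 and 0.07. They reached this level through different genes, since pig 6 was the highest pig for HIF1A, EGLN3, ADM and NDRG1 and pig 7 for EPAS1, EGLN1, VEGFA and DDIT4. In pig 6 EPAS1 was at its lowest over all pigs and EGLN1 at -1.42 SD units, and in pig 7 HIF1A was at its lowest. The mean mixes HIF1A, EPAS1 and EGLN1 with the known targets, and in pig 7 EPAS1 stood at 2.10 and EGLN1 at 1.57 SD units. The targets ran from -0.66 (DDIT4) to 2.12 (NDRG1) in pig 6 and from -0.54 (EGLN3) to 1.73 (VEGFA) in pig 7. Pig 7 is among the pigs whose Y counts went against the label, and pig 6 is not. Only VEGFA was more than 1 SD unit above its mean in both. No pig was above the mean in all 9 genes, the most being 7 in pig 7, and pig 11 was below it in 8.

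**Figure D3:**
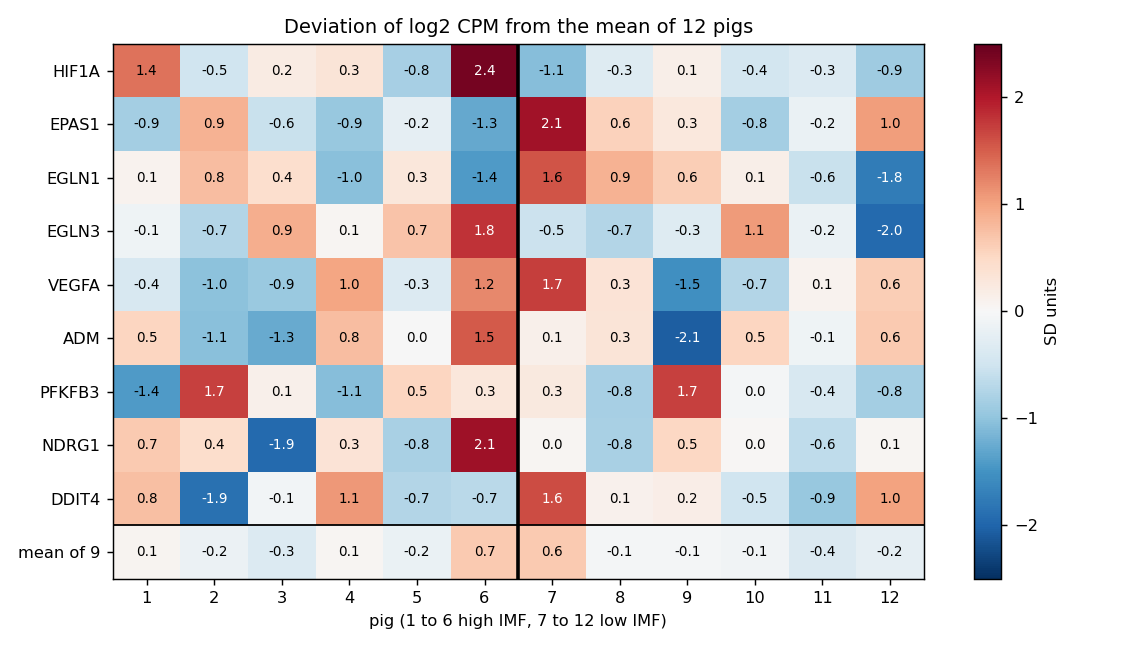
Deviation of log2 CPM from the mean of 12 pigs in SD units, with 9 hypoxia genes and their mean as rows and pigs as columns, the high IMF group left of the thick line. The means of pigs 6 and 7 are 0.66 and 0.65, and deep red cells of both pigs coincide only in VEGFA.

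Other transcripts that moved with pigs 6 and 7 are given as measured. Macrophage markers (9 of 10 tested) summed to 190.3 CPM in pig 6 and 159.3 CPM in pig 7, against 81.0 to 134.1 CPM in the other pigs. Over 12 pigs their mean level had an r of 0.87 with the mean of the 9 hypoxia genes, and 0.48 without pigs 6 and 7. For lists described below, the same r was 0.42 for other hypoxia targets (0.54 without pigs 6 and 7) and 0.59 for glycolysis (-0.09). It was 0.60 for immediate early genes (0.53), 0.16 for HIF partners (-0.41) and 0.17 for VEGF and adrenomedullin (-0.13). Endothelium markers had -0.42 (-0.49). The 5 named genes most like the mean of the 9 hypoxia genes were C1QB (r = 0.91), NXT1 (0.90), C1QA (0.90), RPS6KA1 (0.89) and C1QC (0.89), of which the C1Q chains are complement subunits made by macrophages. Without pigs 6 and 7 these 5 values ran from 0.58 to 0.79. The 5 were picked as the highest r among 11828 genes over only 12 pigs, a pick that by itself gives high values. Red blood cell markers (4 of 8 tested, among them HBB, the beta globin) summed to 633.1 CPM in pig 6 and to 41.3 to 122.3 CPM in the others. Pig 7 had the highest sum of muscle fibre markers and the lowest TMM factor, and pig 6 the lowest muscle fibre sum. The part of these cells and of library scaling in the values of the 2 pigs was not tested.

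The genes did not move as a block over pigs. Of 36 pairs of hypoxia genes, 19 had a Pearson r above 0 and 17 below 0, with a median of 0.040 beside -0.001 over all pairs of tested genes. An r of at least 0.7 was reached by 1 pair, or 2.78%, beside 1.51% of all gene pairs. With group means removed it was again 1 of 36, beside 1.68%. The 36 pairs mix HIF1A, EPAS1 and EGLN1 with the known targets, so they are not a reading of the targets alone. Among pairs of known targets r ran from -0.67 (ADM with PFKFB3) to 0.74 (VEGFA with ADM), and most were above 0. The first principal component of the 9 genes held 37.2% of their variance and the second 28.0%, and on the first EPAS1, EGLN1 and PFKFB3 had the opposite sign to the other 6. All correlations are descriptions over the same 12 libraries, whose depth and scaling the genes share.

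The pair above 0.7 was VEGFA with ADM (r = 0.74, Spearman rho 0.71). It was 0.90 within high and 0.62 within low IMF pigs, 0.80 without pigs 7 and 9, and between 0.64 (without pig 9) and 0.85 (without pig 7) when each pig was left out. In the pigs whose Y counts matched their label r was 0.87. ADM and PFKFB3, both known targets of HIF, ran against each other (r = -0.67, rho -0.58), with -0.51 within high and -0.90 within low IMF pigs. PFKFB3 with DDIT4 (r = -0.53, rho -0.52) had -0.97 within high but 0.04 within low IMF pigs, and -0.32 without pig 2. ADM was at its lowest in pig 9 and PFKFB3 second highest there, and DDIT4 at its lowest in pig 2, where PFKFB3 was highest.

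The alpha subunits were inversely related, with an r of -0.70 and a rho of -0.81 over 12 pigs, -0.60 with group means removed, -0.75 within high and -0.64 within low IMF pigs. Without pigs 6 and 1 r was -0.67, and with libraries scaled by their totals alone it was -0.57. EPAS1 and EGLN3 were inverse as well (r = -0.74, rho -0.85), with -0.66 within high and -0.65 within low IMF pigs and -0.91 with library totals alone. EGLN3 went with HIF1A (r = 0.57), an r that was 0.26 without pig 6. For HIF1A and NDRG1 an r of 0.60 rested on pigs 6 and 1, without which it was -0.13.

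**Figure D4:**
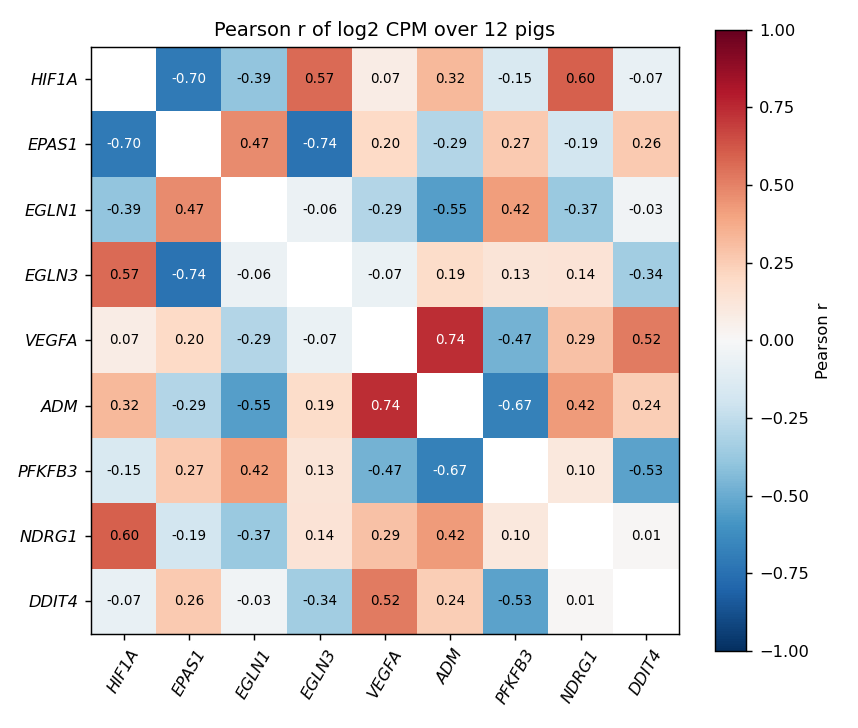
Pearson r of log2 CPM over 12 pigs for each of the 36 pairs of hypoxia genes. VEGFA with ADM (0.74) is the only pair at or above 0.7, and HIF1A with EPAS1 (-0.70) and EPAS1 with EGLN3 (-0.74) are the most negative.

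For each gene the named gene most like it over the 12 pigs was taken from 11828 tested genes with a symbol, the hypoxia genes themselves left out. Each r is thus the highest of 11828 over only 12 pigs, a pick that by itself gives high values. Whether the genes are partners was not tested. EPAS1 went with FLT1, a VEGF receptor of endothelium (r = 0.92, and 0.84 without pigs 7 and 12). FLT1 had 12.6 ± 3.97 CPM (SD, n = 6) in high and 18.6 ± 4.98 CPM (SD, n = 6) in low IMF pigs. HIF1A went with GCNT4, an enzyme of O-glycan branching (r = 0.96, and 0.84 without pigs 6 and 1). The others were UBE3A for EGLN3 (0.92), SLC15A3 for NDRG1 (0.91), ZDHHC16 for DDIT4 (0.89), C7orf50 for EGLN1 (0.88), PFKFB3 with ARSB (0.86), ADM with TSPAN33 (0.86) and VEGFA with EIF4A3 (0.86). No hypoxia gene shared its nearest gene with another. With 1 gene taken of 11828 for each, a shared gene was unlikely in any case, so nothing about a joint response follows.

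The remaining genes of the pathway were described by list. Of 19 partners and regulators of HIF 16 were tested and 0 were called. Of all genes 5.04% stood at an unadjusted p at or under 0.05 toward the high and 5.38% toward the low IMF group. Of the 16 partners 0 did so toward the high and 3 toward the low IMF group. These were the coactivator CREBBP (39.3 ± 12.0 against 61.0 ± 14.7 CPM, SD, n = 6, log2FC 0.63, adjusted p 0.420), HIF1AN, the asparaginyl hydroxylase that blocks HIF activity (303 ± 23.4 against 358 ± 21.9 CPM, log2FC 0.24, adjusted p 0.427), and OS9 (43.4 ± 2.78 against 50.3 ± 4.29 CPM, log2FC 0.22, adjusted p 0.436). CITED2, which competes with HIF for its coactivators, had a log2FC of -0.76 and an adjusted p of 0.490. ARNT, the shared partner of both alpha subunits, kept to 35.1 to 38.5 CPM in high and 34.7 to 40.7 CPM in low IMF pigs (named after its values were seen).

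Of 32 other hypoxia targets 29 were tested and 0 called, with 3 at an unadjusted p at or under 0.05 toward each group (all genes 5.04% toward high and 5.38% toward low IMF) and a median log2FC of -0.058. WSB1, a ubiquitin ligase subunit, had 22.7 ± 3.42 CPM (SD, n = 6) in high and 15.6 ± 2.51 CPM (SD, n = 6) in low IMF pigs (log2FC -0.54, adjusted p 0.296), and the groups met between 19.0 and 19.5 CPM. The demethylase KDM4B (log2FC 0.38, adjusted p 0.427), the collagen prolyl hydroxylase P4HA2 (0.44, adjusted p 0.427) and FLT1 (0.56, adjusted p 0.434) had higher means in low IMF pigs. CXCR4 (9.13 ± 6.99 against 4.57 ± 2.03 CPM, SD, n = 6, adjusted p 0.441), named after its values were seen, had a higher mean in high IMF pigs. Of 23 hypoxia-induced genes of glycolysis 20 were tested, 0 were called and 0 stood at an unadjusted p at or under 0.05, with a median log2FC of 0.025. The smallest adjusted p among them was 0.514, for GPI, which had 988 ± 82.3 and 1148 ± 179 CPM (SD, n = 6). SLC2A1, SLC2A3 and PGM1 of this list were not tested here.

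Of 16 ligands and receptors of VEGF, adrenomedullin and the angiopoietins 14 were tested, 0 were called, and 5 stood at an unadjusted p at or under 0.05, with 3 toward the high and 2 toward the low IMF group, beside 5.04% and 5.38% of all genes. NRP1, a VEGF coreceptor, had 19.6 ± 3.66 CPM (SD, n = 6) in high and 32.1 ± 10.2 CPM (SD, n = 6) in low IMF pigs (log2FC 0.71, adjusted p 0.367), and FLT1 is given above. VEGFC, a ligand of lymphatic vessels, had 2.34 ± 0.502 and 1.57 ± 0.267 CPM (SD, n = 6, log2FC -0.58, adjusted p 0.419), and ACKR3 a log2FC of -0.51 with an adjusted p of 0.434. The fifth gene, named after its values were seen, was ANGPT1 (log2FC -0.61, adjusted p 0.441). Beside the missing BNIP3, 10 genes of mitophagy and autophagy were tested and 0 called. Of the 10, 0 stood at an unadjusted p at or under 0.05 toward the high and 2 toward the low IMF group, beside 5.04% and 5.38% of all genes. They were MAP1LC3A (log2FC 0.33, adjusted p 0.431) and ULK1 (0.49, adjusted p 0.435).

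**Figure D5:**
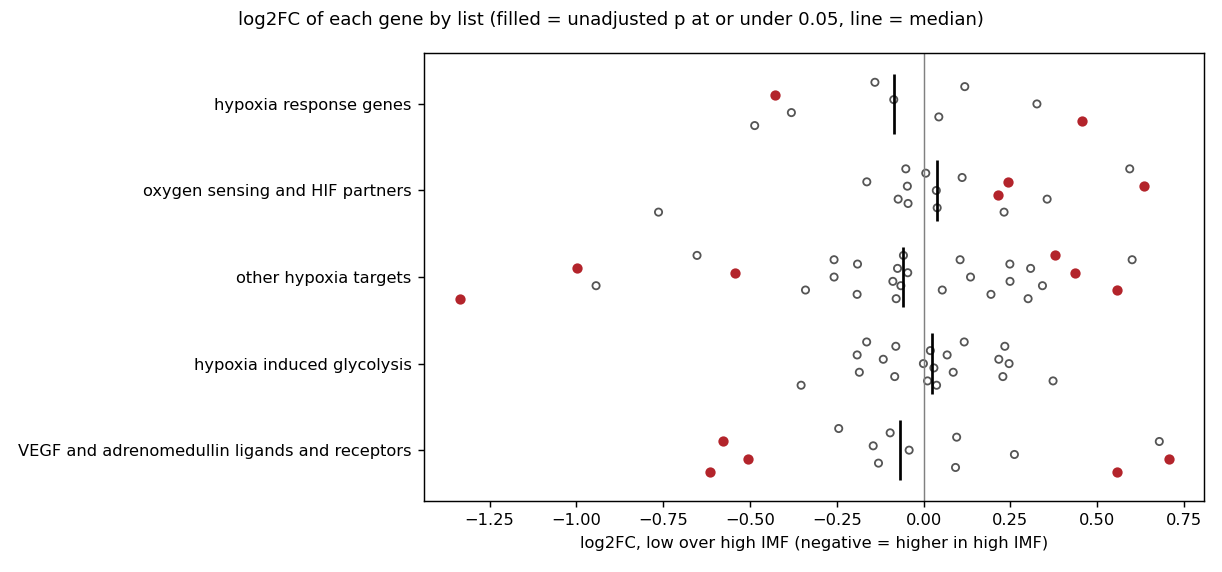
Log2FC, low over high IMF, of each tested gene in the hypoxia genes and 4 related lists, with filled points at an unadjusted p at or under 0.05 and a line at each list's median. The medians lie between -0.086 and 0.038, filled points fall on both sides of 0 in 3 of the lists, and the 20 glycolysis genes have none.

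DDIT4, ADM and EGLN3 also answer to stress pathways other than oxygen, so lists of those were read beside them. Of 13 listed immediate early genes 12 were tested and 0 called, with a median log2FC of -0.56. At an unadjusted p at or under 0.05 stood 5 toward the high and 1 toward the low IMF group, beside 5.04% and 5.38% of all genes. EGR2 (log2FC -1.02, adjusted p 0.420) and IER2 (-0.92, adjusted p 0.422) were highest in pig 6, and NR4A3 (1.12, adjusted p 0.427) was highest in pig 7. Of 10 listed glucocorticoid targets 8 were tested and 0 called. At an unadjusted p at or under 0.05 stood 2 toward each group, beside the same 5.04% and 5.38% of all genes. These were DUSP1 (log2FC -0.83) and SGK1 (-1.02) toward the high and KLF15 (0.66) and ZBTB16 (0.54) toward the low IMF group. DDIT4 had an r of -0.09 with the mean level of the 8 targets. Of 10 listed genes of the integrated stress response 8 were tested, without ATF4 and DDIT3. Of these 8, 0 were called and 0 stood at an unadjusted p at or under 0.05. EGLN3 had an r of 0.74 with the mean level of the 8, which was 0.40 without pigs 6 and 12. ADM had an r of 0.23 with that level (0.23 without pigs 9 and 3) and DDIT4 of -0.37 (-0.73 without pigs 2 and 7).

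Of the markers of fibre types and other cells in the muscle 0 were called between the groups by the quasi-likelihood test. Of all genes 10.4% stood at an unadjusted p at or under 0.05 in this test, 5.04% toward the high and 5.38% toward the low IMF group. Toward the low IMF group 1 of 7 fibre (MYBPC2), 1 of 7 fast fibre (ATP2A1) and 1 of 8 endothelium markers (CDH5) did so. Toward the high IMF group 2 of 9 macrophage (AIF1 and MSR1) and 2 of 7 fibro-adipogenic markers (PDGFRA and DPP4) did so. No slow fibre, adipocyte or red blood cell marker did. Slow fibre markers (6 of 9 tested) had a median log2FC of -0.17 and fast fibre markers (7 of 10 tested) of 0.16, and ATP2A1, the calcium pump of fast fibres, had 5181 ± 895 and 7137 ± 890 CPM (SD, n = 6, adjusted p 0.367). Adipocyte markers (9 of 10 tested) had a median log2FC of 0.16, with a sum of 286.8 to 399.8 CPM in high and 155.1 to 583.1 CPM in low IMF pigs, and fibro-adipogenic markers (7 of 8 tested) had a median of -0.069. Macrophage markers had a median of -0.27, with sums of 81.0 to 190.3 CPM in high and 90.4 to 159.3 CPM in low IMF pigs. NDRG1 had an r of 0.76 with the mean macrophage level and 0.77 with that of red blood cell markers, and without pigs 6 and 3 these were 0.34 and 0.38.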

How the data were processed

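SM muscle of 12 ILW pigs was sequenced as stranded paired-end mRNA libraries. The authors trimmed reads with Trimmomatic, aligned them to Sus scrofa 11.1 with HISAT2, ran StringTie on known transcripts and deposited whole-number counts per Ensembl gene from HTSeq. The strand and multi-mapping options of the counting are not given in the sources used here, so overlapping genes are uncertain.

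Genes kept by filterByExpr were scaled by TMM and compared in R 4.3.3 by the quasi-likelihood test of edgeR 4.0.16. The model held only the group, and Benjamini-Hochberg adjustment ran over 14262 genes. Calls used the study's thresholds. The study's own tool, DESeq2 (1.42.0), limma-voom (limma 3.58.1), other scalings and filters, labelled sex or age as covariates, the pigs whose Y counts matched their label and each pig left out in turn were alternatives. Log2 CPM used a prior count of 2. The Y counts were split at 1000. Exact permutation tests of single genes and correlations used scipy 1.17.1. P-values measure the spread between pigs, and at these depths counting error is small beside it. RefSeq positions and sequences are those of Sscrofa11.1. A promoter window and a gene of the lists are not reported here.

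The hypoxia genes and all lists were chosen with earlier results of these data known. Named genes were the hypoxia genes, up to 4 genes of each list with the smallest unadjusted p, the gene most like each hypoxia gene and the 5 most like their mean. Carcass weight, IMF % and RT-qPCR were not analysed here.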

Additional observations from a re-analysis of the deposited data

Results flagged for a closer look

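PFKFB3 in pig 9 of the low IMF group was far from the rest of its group, at 102.9 CPM with the next pig at 46.1 CPM, and the gap was 0.731 of the group's range, above the 95% critical value of Dixon's test for 6 samples. This was the 1 case among 18 groups looked at, and chance gives about 1 in 20. Pig 2 of the high IMF group had a level near to it (103.5 CPM).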

How the results depend on the processing

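No hypoxia gene was called under any of the 22 alternatives. The number at an unadjusted p at or under 0.05, 2 in the fit reported, was 1 with upper-quartile normalization and with labelled sex or labelled age as a covariate, 0 with limma-voom and in the pigs whose Y counts matched their label, and 0 to 3 with each pig left out. Of 198 log2FC values under alternatives 191 kept their direction. With each pig left out the log2FC ran from -0.10 (without pig 7) to 0.28 for VEGFA, from -0.27 to 0.072 (without pig 6) for ADM, with 0.021 without pig 9, and from -0.51 (without pig 9) to 0.29 (without pig 2) for PFKFB3, with 0.046 without pig 8 or pig 12. EGLN1 turned to -0.097 in the pigs whose Y counts matched their label. Pairs with an r of at least 0.7 numbered 4 in the pigs whose Y counts matched their label (VEGFA with ADM, HIF1A with NDRG1 and EGLN3, and EGLN3 with NDRG1, over 6 pigs) and 0 to 2 with each pig left out, with 0 without pig 6. The causes were not tested. The 6 pigs a group and the width of the intervals limit what could be called, and the mismatch of Y counts and labels touches every group difference. No paired analysis was possible because the pigs carry their own numbers from 1 to 12 and no label pairs pigs across groups.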
